A study of Mus musculus with 474 samples.

Results

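The nuclear genes of cytochrome c oxidase (complex IV of the respiratory chain) and of ATP synthase (complex V) were examined in skeletal muscle RNA-seq of Diversity Outbred (DO) mice. Members were all genes of the deposited tables whose symbol starts with Cox4 to Cox8 followed by a, b or c, or with Atp5, without named pseudogenes. This rule took 32 of the 20612 genes, 15 of complex IV and 17 of complex V. Of these, 31 are annotated as protein coding, and Cox6c2 is a processed pseudogene on chromosome 12. The main complex IV subunit Cox4i1 does not have the name pattern and is described among the related genes, as are the subunits encoded by mitochondrial DNA.

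Complex IV takes electrons from cytochrome c, passes them to oxygen and pumps protons across the inner mitochondrial membrane. ATP synthase lets the protons flow back through a ring of c subunits, and the turning of this ring and its central stalk drives the making of ATP in the catalytic head. Subunits 6a, 7a and 8 of complex IV exist in a form typical of heart and skeletal muscle, encoded by Cox6a2, Cox7a1 and Cox8b, and in a form found in most tissues, encoded by Cox6a1, Cox7a2 and Cox8a. Skeletal muscle is rich in both complexes, and slow fibres hold more mitochondria than fast ones.

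DO mice come from the random crossing of 8 inbred strains, and no pair of animals has the same genome. All animals ate a high-fat, high-sugar diet (45% fat by its label) and were 22 weeks old at harvest, and no animals on another diet were analysed here. Each animal gave 1 library of polyadenylated RNA, from the gastrocnemius according to the methods. Females made up 49.6% of the animals, and both sexes were divided by a title number read as the outbred generation (17, 18, 19, 21 or 23), which gave 10 groups of 45 to 50 animals. That reading is an assumption on which every comparison of generations rests, since the methods do not name 17 and 23 among the generations used.

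The total count per library ran from 35900000 to 165700000, with a median of 79300000. Library numbers fell into 5 blocks of 91 to 96 libraries, whose meaning the labels do not give. In 5 libraries, RNA of sex-linked genes went against the labelled sex or only partly with it. Without them, the same numbers of members differed between the sexes (17, with 11 higher and 6 lower in males). Skeletal muscle markers were abundant in all libraries, with a summed level of 5 genes between 70577 and 153474 CPM (the count scaled to a common library total). In bulk tissue, fewer cells of a type and less RNA per cell cannot be told apart.

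Several members have copies elsewhere in the genome, and in some the counts of gene and copy moved against each other between animals, so the coding sequences of 2 of them are shown first. Atp5g2, which encodes a c subunit of the ATP synthase ring, lies on the minus strand of chromosome 15 (GRCm38, chr15:102662864-102672352). The transcribed processed pseudogene Gm10175 (chr7:23946646-23947290) equalled its transcript at 100% of the aligned bases. The coding bases, from the start codon to the stop codon, are therefore the same in both, and the first 300 are given.

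Atp5g2 and Gm10175: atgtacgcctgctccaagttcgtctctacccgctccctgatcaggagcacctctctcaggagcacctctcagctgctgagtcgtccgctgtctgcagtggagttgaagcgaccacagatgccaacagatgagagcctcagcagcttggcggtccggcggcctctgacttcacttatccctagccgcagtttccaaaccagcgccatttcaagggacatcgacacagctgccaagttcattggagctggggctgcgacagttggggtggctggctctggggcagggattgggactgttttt

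Cox5b, a subunit on the matrix side of complex IV, lies on the plus strand of chromosome 1 (GRCm38, chr1:36691449-36693681), and Gm11273 (chr13:21501029-21501418), which the annotation calls protein coding, matched it with 99.2% identity over 390 bases. The coding sequences differed at 3 positions counted from the A of the start codon, C114T, A213G and G243A, with the base of Cox5b given first. The bases from 100 to 260 are given, with these positions in capitals.

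Cox5b: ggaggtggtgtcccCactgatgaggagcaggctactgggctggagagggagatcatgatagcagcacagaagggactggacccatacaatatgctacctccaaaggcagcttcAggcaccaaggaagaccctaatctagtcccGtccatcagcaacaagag
Gm11273: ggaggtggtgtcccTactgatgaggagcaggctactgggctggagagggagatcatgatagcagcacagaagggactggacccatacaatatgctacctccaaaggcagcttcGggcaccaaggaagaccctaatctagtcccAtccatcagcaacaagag

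The 280 bases around the start of 3 genes of the isoform pairs are shown because Cox6a1 and Cox8a, the forms found in most tissues, varied together between animals, and Cox8b is a muscle form. They hold 250 bases before and 30 bases from the start site, from RefSeq (GRCm38.p6), where 27 of the 32 members were matched. Capitals mark motif matches on either strand. In Cox6a1 (chr5:115348929-115349208, minus strand) they are a pair of matches to the NRF1 motif (GCGC and TGCGC with any base between them). In Cox8a (chr19:7217587-7217866, minus strand) they are the ETS motif CCGGAAGT, the kind of site that GABPA binds. In Cox8b (chr7:140900417-140900696, minus strand) they are the E-box CAGCTG of muscle factors and the TATA box TATAAA.

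Cox6a1: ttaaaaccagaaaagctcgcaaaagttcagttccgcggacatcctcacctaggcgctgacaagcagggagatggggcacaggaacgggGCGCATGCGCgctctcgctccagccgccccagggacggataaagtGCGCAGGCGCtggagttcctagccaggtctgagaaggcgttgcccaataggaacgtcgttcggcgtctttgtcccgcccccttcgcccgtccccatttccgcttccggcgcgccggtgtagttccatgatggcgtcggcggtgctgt
Cox8a: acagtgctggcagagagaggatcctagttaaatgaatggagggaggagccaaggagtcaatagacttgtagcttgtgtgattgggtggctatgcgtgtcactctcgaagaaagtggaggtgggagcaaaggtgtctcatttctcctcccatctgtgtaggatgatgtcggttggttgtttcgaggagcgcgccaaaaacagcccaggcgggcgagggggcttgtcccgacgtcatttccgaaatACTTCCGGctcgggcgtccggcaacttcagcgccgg
Cox8b: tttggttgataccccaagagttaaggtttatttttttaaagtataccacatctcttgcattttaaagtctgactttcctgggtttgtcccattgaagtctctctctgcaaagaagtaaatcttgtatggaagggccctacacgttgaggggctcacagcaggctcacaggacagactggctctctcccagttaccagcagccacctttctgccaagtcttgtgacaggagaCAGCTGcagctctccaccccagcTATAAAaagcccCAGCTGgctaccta

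Over windows of 300 bases, which run to 50 bases after the start, the NRF1 motif was in 7 of 27 member promoters (25.9%), namely those of Atp5c1, Atp5g2, Atp5g3, Atp5h, Atp5k, Atp5o and Cox6a1, and in 5.19% of the 27025 genes with a promoter. The YY1 motif AAGATGGC was in 3 (11.1%, against 3.19% of all), the ETS motif in 2 (7.41%, against 4.31%) and the ERRA half-site TCAAGGTCA in 1 (3.70%, Atp5g3, against 0.466%). CAGCTG was in 2 members (Atp5b and Cox8b) and 18.3% of all promoters, and TATAAA was in 3 members (Atp5l, Atp5md and Cox8b) and 15.7% of all. Both strands were searched, and the matches are a description of these letters and not of bound sites.

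The members made up 0.649% to 1.21% of each library's counts (median 0.911%), with complex V at a median of 0.715% and complex IV at 0.195%. The catalytic head of ATP synthase stood highest. Atp5b, its catalytic beta subunit, had a mean of 1091 CPM per kilobase of transcript, and Atp5a1, the alpha subunit, had 775. The next members on this scale were Cox6c at 471.98, Atp5g3 at 467.4, Cox6a2 at 431.1, Atp5h at 405.2 and Cox8b at 400.1 CPM per kilobase. Thus the third to seventh places were held by genes of either complex within a narrow range.

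Per kilobase of transcript, muscle forms stood above their counterparts in every pair. On this scale, Cox6a2 was at 431.1 and Cox6a1 at 19.6, Cox8b at 400.1 and Cox8a at 27.2, and Cox7a1 at 204.7 and Cox7a2 at 154.1. In CPM without this correction, however, Cox7a1 (mean 80.4) lay below Cox7a2 (mean 101.6). Among the 3 genes for the same c subunit, Atp5g3 was at 467.4, Atp5g1 at 360.75 and Atp5g2 at 102.4 CPM per kilobase, where Atp5g2 leaves out counts assigned to its copy. Cox6b1, which faces cytochrome c, was at 337.4 in females and 336.6 in males, whereas its testis form Cox6b2 was at 0.392 and 0.355, with a median of 12.5 counts and 0 counts in 5 libraries. Cox6c2 had a median of 2.12 counts, rounded to 0 in 30.2% of libraries, and was the only member that the filter on low counts removed. The other 31 members were tested.

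**Figure D1:**
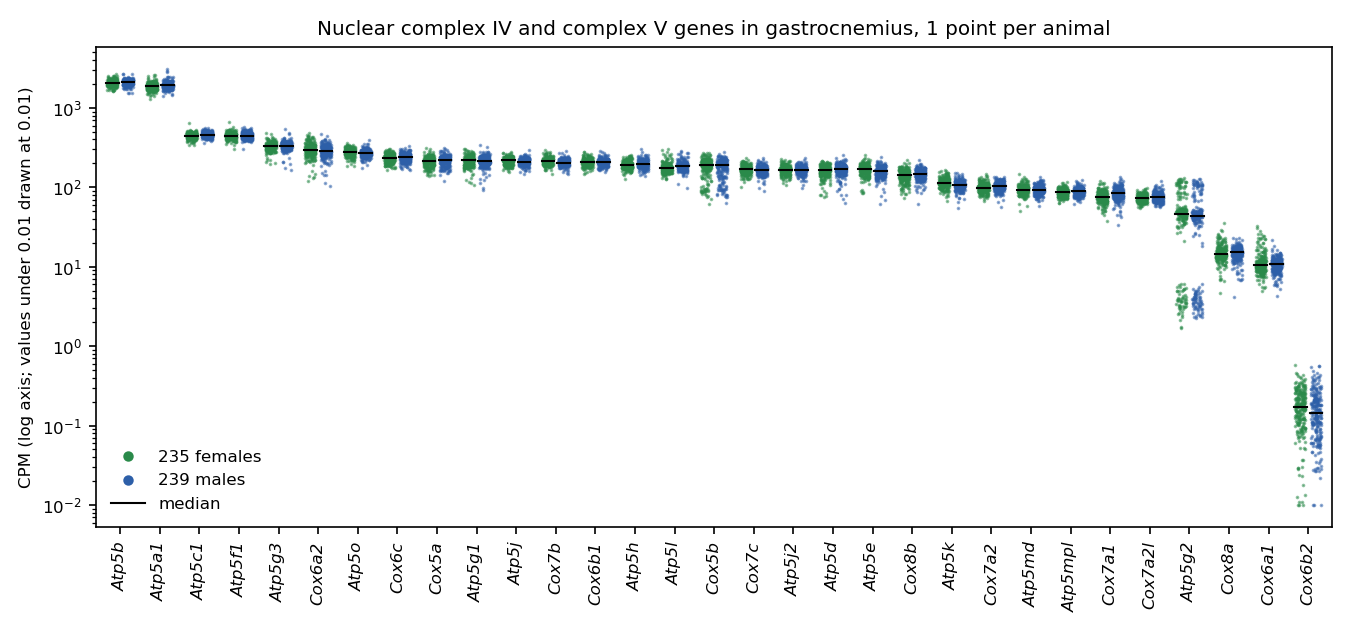
Level of each tested gene (CPM, log axis) in females (green) and males (blue), 1 point per animal, with the median as a bar. Atp5b and Atp5a1 lie highest at medians of 2085 and 1902 CPM, Atp5g2 falls into separate groups of animals in both sexes, and Cox6b2 lies lowest at 0.159 CPM.

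To find how the members differed between the sexes, rounded counts were fitted in edgeR (quasi-likelihood F-test, generation as covariate), with Benjamini-Hochberg adjustment of the p-values of all 18823 tested genes. Differences were small and in both directions. At an adjusted p under 0.05, 17 of 31 members (54.8%) differed between the sexes, against 55% of all genes. Of these, 11 were higher in males (24.4% of all genes were) and 6 were lower (30.6% of all genes were). None reached 1.5-fold, which 5.3% of all genes did. The median absolute difference was 0.04 on the log2 scale, against 0.09 over all genes. The balance of directions depended on the scaling. With the total count alone in place of TMM factors, only Cox7a1 and Atp5a1 were higher in males and 10 members were lower.

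Among the subunits of complex IV, 9 of 14 differed, 6 higher and 3 lower in males. Cox7a1, the muscle form of subunit 7a on chromosome 7 (GRCm38, chr7:30184144-30186078, plus strand), had 37.4 CPM in the lowest female, a median of 75.8 and 120.7 in the highest, and 33.5, 83.8 and 135.8 CPM in males. It rose most in males, by 0.14 ± 0.02 (log2, SE; 9.95%; edgeR adjusted p = 2.23e-08), although the ranges of the sexes overlapped almost wholly. The direction was the same in 5 of 5 generations (0.11 to 0.18) and in all 5 library blocks. Its counterpart Cox7a2 had 67.1, 98.8 and 147.5 CPM in females and 57.2, 103.5 and 135.6 CPM in males (0.05 ± 0.02, adjusted p = 0.0170), a call lost on the VST score (adjusted p = 0.0537).

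Cox8b, the muscle form of subunit 8, had 73.4, 141.2 and 223.4 CPM in females (lowest, median and highest) and 62.1, 147.4 and 220.99 CPM in males, a rise of 0.07 ± 0.02 (adjusted p = 0.00555). Cox8a, its counterpart, had 4.60, 14.3 and 35.4 CPM in females and 4.17, 15.1 and 23.2 CPM in males and did not pass the test (-0.03 ± 0.03, adjusted p = 0.489). Cox7a2l, an assembly factor that joins complexes III and IV, was higher in males as well (0.06 ± 0.02, adjusted p = 0.000805), from 54.8, 72.8 and 98.4 CPM in females to 56.5, 75.5 and 118.9 CPM in males. Cox5a (0.04, adjusted p = 0.0390) and Cox6c (0.04, adjusted p = 0.0408) were the other complex IV members that rose, but both calls were lost with limma on the deposited VST score (adjusted p = 0.153 and 0.160), with the total count alone, without the filter and with a minimum count of 100, and that of Cox6c also with DESeq2 (adjusted p = 0.0517) and its size factors.

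Both forms of subunit 6a were lower in males. Cox6a2, the muscle form, had 118.7, 295.4 and 476.4 CPM in females and 104.8, 285.1 and 473.9 CPM in males, a difference of -0.06 ± 0.03 (adjusted p = 0.0271) with the same sign in 5 of 5 generations. Cox6a1 had 4.90, 10.6 and 32.2 CPM in females and 4.23, 10.8 and 21.8 CPM in males, a difference of -0.12 ± 0.04 (adjusted p = 0.00250), and its sign was negative in 4 of 5 generations (-0.22 to 0.03). Its medians did not differ in that direction, and its spread was larger in females (SD of 4.33 CPM) than in males (SD of 2.26 CPM). With the summed slow-fibre and adipocyte genes as covariates, the difference of Cox6a1 turned to 0.04 (adjusted p = 0.349) and that of Cox6a2 came to -0.04 (adjusted p = 0.291). Cox7b, a small membrane subunit encoded on the X chromosome, was lower in males by 4.34% (-0.06 ± 0.01, adjusted p = 6.05e-06), at 146.2, 214.8 and 298.7 CPM in females and 148.7, 205.1 and 288.6 CPM in males.

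In ATP synthase, 8 of 17 members differed, 5 higher and 3 lower in males. The head subunits rose or did not pass the test. Atp5a1 had 1312, 1863 and 2620 CPM in females and 1404, 1935 and 3105 CPM in males (0.06 ± 0.01, adjusted p = 1.76e-05), and it kept its call with the total count alone (0.03, adjusted p = 0.0237). Atp5c1, the gamma subunit of the central stalk, rose by 0.04 ± 0.01 (adjusted p = 0.000281). Atp5b came to 0.01 ± 0.01 (adjusted p = 0.689) and Atp5d, the delta subunit, to 0.04 ± 0.02 (adjusted p = 0.137), but Atp5d was called higher in males once the library block was added (0.05, adjusted p = 0.0129). Atp5e, the small epsilon subunit of the same stalk, was lower in males, at 83.9, 169.1 and 256.1 CPM in females and 61.1, 161.1 and 239.2 CPM in males (-0.08 ± 0.02, adjusted p = 0.000591).

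The small subunits e and g, which sit next to each other where ATP synthase forms dimers, went in opposite directions. Atp5k, encoding subunit e, had 67.5, 114.5 and 164.7 CPM in females and 54.5, 105.6 and 153.1 CPM in males, and it fell by 0.11 on the log2 scale (SE 0.02; 7.35% lower in males; adjusted p = 1.21e-08). This was the smallest p among the members, and the difference was negative in 5 of 5 generations and 5 of 5 blocks. Atp5l, encoding subunit g, had 127.4, 176.4 and 299.2 CPM in females and 99.3, 184.2 and 288.9 CPM in males, a rise of 0.07 ± 0.02 (adjusted p = 0.000352) in 5 of 5 generations and 4 of 5 blocks. With the copies of Atp5l added, the rise was also 0.07.

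In the stator stalk, Atp5h (subunit d) was higher in males (0.05 ± 0.01, adjusted p = 0.00620) and Atp5j (coupling factor 6) lower (-0.05 ± 0.01, adjusted p = 0.000773). Atp5f1 (subunit b) came to 0.00 ± 0.01 and Atp5o, which ties the stalk to the head, to -0.03 ± 0.01 (adjusted p = 0.0655). Atp5o was called lower in males by DESeq2 (adjusted p = 0.0413), with its size factors, on the VST score (0.0236), with a minimum count of 100 (0.0214) and with the total count alone. Of the c subunit genes, Atp5g1 (-0.01), Atp5g2 (-0.13 ± 0.13) and Atp5g3 (0.02) did not pass the test. With its copy added, Atp5g2 came to -0.04 (adjusted p = 0.0495). Atp5mpl, a small associated protein, rose by 0.03 ± 0.01 (adjusted p = 0.0373), a call lost on the VST score (adjusted p = 0.149), without the filter and with a minimum count of 100. The remaining members that did not pass were Cox6b2, Cox5b, Cox7c, Cox6b1, Atp5j2 and Atp5md, of which all but Cox6b2 (-0.15 ± 0.09) lay between -0.03 and 0.00. Cox7c was called lower in males on the VST score (-0.04, adjusted p = 0.0346) and with the total count alone (adjusted p = 0.00261), and Cox6b1 and Atp5f1 with the total count alone (adjusted p = 0.0352 and 0.0124).

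**Figure D2:**
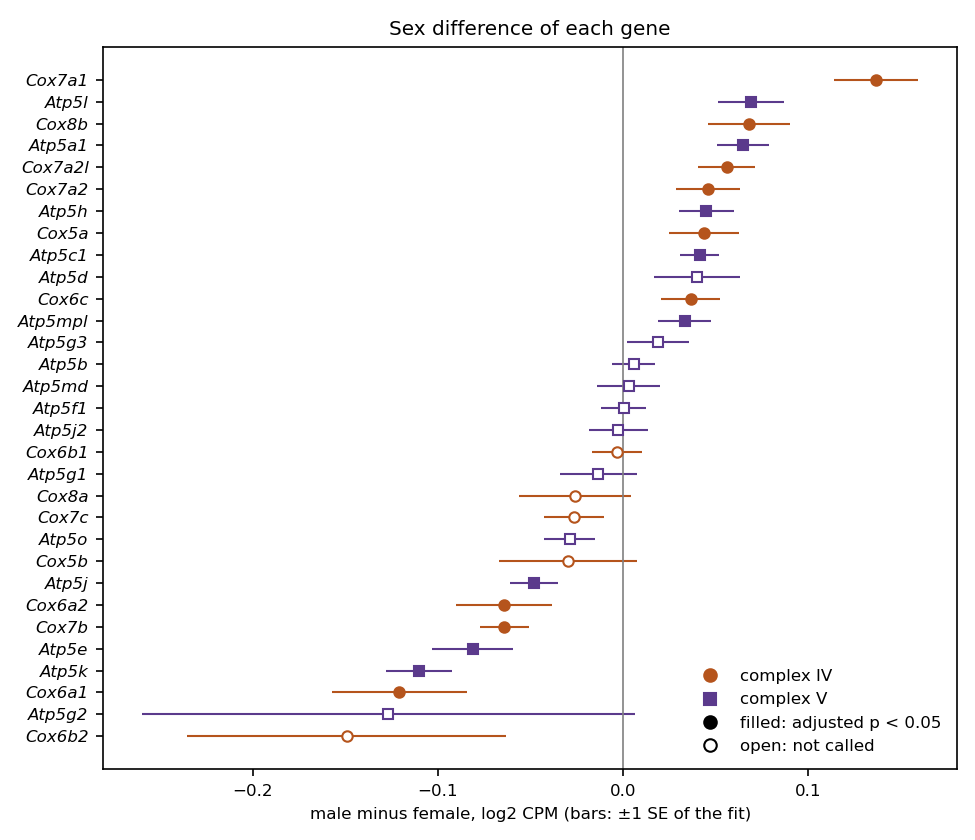
Sex difference of each tested gene (male minus female, log2 CPM, horizontal axis), with bars of 1 SE of the edgeR fit. Filled symbols mark the 17 genes called at an adjusted p under 0.05, and the values run from -0.15 for Cox6b2 to 0.14 for Cox7a1, with genes of both complexes (circles for complex IV, squares for complex V) on either side of 0.

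RNA of tissue markers differed between the sexes, and of all genes 24.4% were higher and 30.6% lower in males. All 9 slow-fibre genes were lower in males, with a summed level of 633.6, 3714 and 10003 CPM in females and 895, 2545 and 8289 CPM in males. Of 9 adipocyte genes, 7 were lower and 1 higher in males, and their sum was 1165, 2586 and 4676 CPM in females and 1102, 1952 and 3271 CPM in males. Of 12 fast-fibre genes, 7 were higher and 3 lower in males. With the slow-fibre and adipocyte sums as covariates, 14 of 31 members differed between the sexes, 10 higher and 4 lower in males, and 47% of all genes did. Cox7a2 (0.04, adjusted p = 0.0813) and Atp5mpl (0.02, adjusted p = 0.367) were also lost in that fit, and Cox8a rose by 0.10 (adjusted p = 0.00783). Of 6 brown adipocyte genes measured, Ucp1, the uncoupling protein of brown fat (9.96 CPM on average in females and 1.10 in males, with a median of 0.107 over all animals), Cidea and Dio2 were lower in males. The 3 that were higher were Ppargc1a and the members Cox7a1 and Cox8b, which muscle expresses too. Of 10 macrophage genes 2 were lower in males, of 5 Schwann cell genes 1 was lower, of 3 cardiac genes tested 1 was lower, and of 5 erythroid genes 3 were higher. Of the 5 skeletal muscle markers 3 were higher and 1 lower. The part of these other lists in the differences of the members was not tested.

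The balance between the muscle form and the common form of a subunit does not depend on the scaling of the library, so the ratio was taken in each animal and compared on the log2 scale (2-sided permutation test with 100000 resamples, smallest possible p = 1e-05, adjusted over the 3 pairs). Cox7a1 over Cox7a2 was 0.430, 0.765 and 1.08 in females (lowest, median and highest) and 0.490, 0.808 and 1.197 in males. The difference was 0.09 ± 0.02 (log2, SE; adjusted p = 0.00021), with 0.05 to 0.14 within generations and 0.05 to 0.19 within blocks. Cox8b over Cox8a was 4.45, 9.87 and 15.9 in females and 5.27, 9.87 and 20.6 in males, with a difference in means of 0.08 ± 0.03 (adjusted p = 0.00569), 0.04 to 0.20 within generations and 0.03 to 0.11 within blocks, while the medians were the same to 3 digits. Cox6a2 over Cox6a1 was 8.42, 27.9 and 52.3 in females and 15.1, 26.96 and 46.9 in males. Its difference in means of 0.02 ± 0.04 did not pass the permutation test (p = 0.671), with -0.13 to 0.15 within generations. Males thus had the higher mean log2 ratio in subunits 7a and 8, and no difference was detected for subunit 6a. The spread was also wider in females for subunit 8 (SD of 0.36 on the log2 scale, 0.27 in males) and for subunit 6a (0.48 and 0.29). For subunit 7a it was narrower in females (0.21 and 0.24). Corrected for transcript length, the median ratios were 22.89 for subunit 6a, 15.1 for subunit 8 and 1.31 for subunit 7a.

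No member was called between generations. With sex as covariate, 0 of 31 members differed between the 5 generations by edgeR, where 7.56% of all genes did. At an unadjusted p under 0.05 there was 1, Cox6c (range between the highest and the lowest generation 0.07, p = 0.0335, adjusted p = 0.199). DESeq2 also called 0 members, with 1 at an unadjusted p under 0.05, and limma on the deposited scores had 0 in both counts. The next smallest adjusted p-values were 0.296 for Atp5j (range 0.05) and 0.341 for Cox7c (range 0.07). The median range was 0.05, against 0.11 over all genes. The sex differences did not vary detectably with generation either. In the edgeR test of the interaction, which called 0.531% of all genes, 0 of 31 members were called and 0 had an unadjusted p under 0.05, and limma gave the same counts. The smallest p was 0.101 (adjusted p = 0.956), for Cox6a1.

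Most members were called between library blocks. In the edgeR fit with sex and generation as further terms, 27 of 31 members differed between the 5 blocks, against 47.4% of all genes. These were 13 of 14 in complex IV and 14 of 17 in complex V. The median range was 0.17 on the log2 scale, near the 0.18 over all genes. Block 1 was lowest for 24 of the 27 members, block 5 was highest for 15 and block 4 for 8. The exceptions to the call were Atp5f1, Atp5l, Cox6b2 and Atp5g2, of which Atp5l (range 0.14, adjusted p = 3.42e-08) and Atp5g2 (range 0.22, adjusted p = 1.02e-18) were called once their copies were added.

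The epsilon and delta subunits of the central stalk were among the members with the largest block differences. Atp5e had medians of 134.9, 170.8, 166.3, 164.2 and 181.7 CPM in blocks 1 to 5 (range 0.43, edgeR adjusted p = 4.27e-46), and Atp5d had 139.0, 174.5, 173.1, 167.3 and 177.99 CPM (range 0.42, adjusted p = 4.93e-40). Cox7a1 had 69.9, 83.6, 79.1, 80.1 and 90.1 CPM (range 0.42, adjusted p = 5.59e-34). Block 1 had the lowest median in these genes. Cox5a, by contrast, was higher in each following block, at 176.4, 206.9, 225.8, 231.4 and 235.8 CPM (range 0.40, adjusted p = 4.45e-65). These ranges exceeded every sex difference of the members, and the sexes were spread over all blocks with 43 to 54 females in each. With the block added to the sex comparison, 18 members differed between the sexes, 12 higher and 6 lower in males, with Atp5d gained. Median depth per block ran from 76200000 to 88800000 counts and was 78300000 in block 1. Whether depth had a part in the block differences was not tested. Divided by the gap in the numbers alone, the libraries form 2 blocks, between which 26 of 31 members differed (45.4% of all genes did), all 26 lower in the first.

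**Figure D3:**
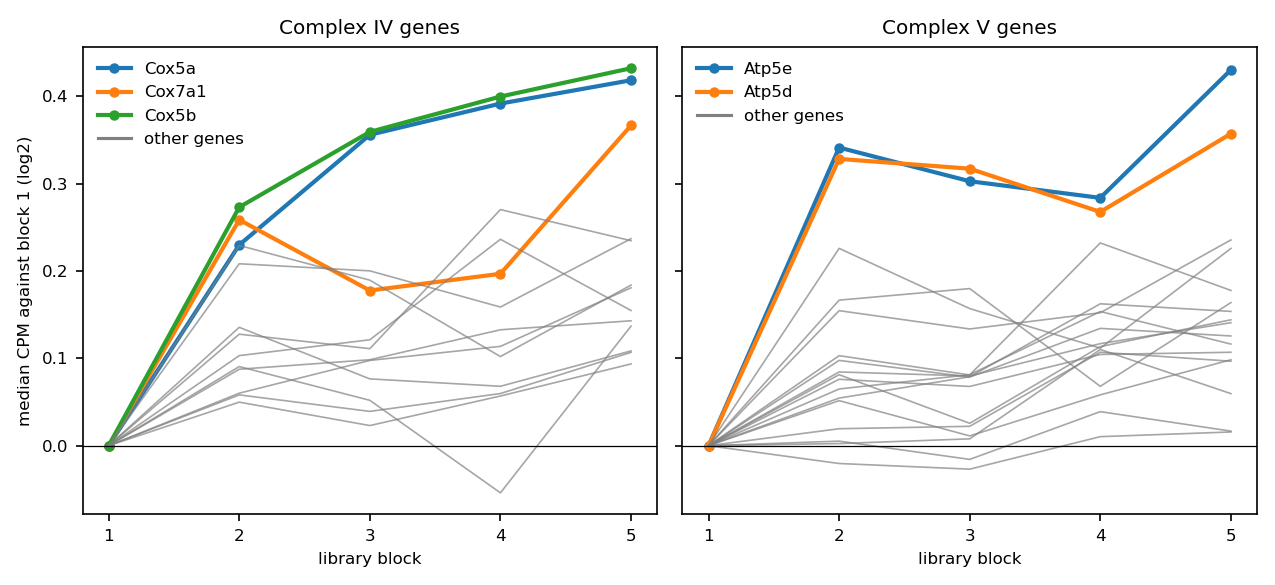
Median level of each tested gene except Cox6b2 in 5 library blocks, as log2 of the ratio to block 1 (vertical axis), for complex IV (left) and complex V (right), with the 5 genes of largest range in colour. Most lines lie above 0 in blocks 2 to 5, and Atp5e and Cox5a reach the largest ranges together with Cox7a1, Atp5d and Cox5b (0.43, 0.40, 0.42, 0.42 and 0.37 in the fit).

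Between animals of the same sex and generation, most members varied little. The SD of log2 CPM after sex and generation had a median of 0.19 over the members and 0.38 over all genes tested, and 27 of 31 members lay below the latter. On the deposited VST score, which evens out the spread of genes with few counts, the gap was smaller, with medians of 0.17 and 0.20 and 21 of 31 members below. The steadiest were Atp5c1 with an SD of 0.11, and Atp5b and Atp5f1 with 0.13 each. In CPM, Atp5c1 ran from 344.97 to 637.5 with a median of 454.4, Atp5b from 1537 to 2707 with a median of 2085, and Atp5f1 from 304.4 to 659.7 with a median of 444.8. Cox6b2 had a large SD (0.84) at its few counts, from 0 to 0.579 CPM with a median of 0.159. Cox6a1 (0.39) and Cox8a (0.34) were also among the 5 most variable members.

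Atp5g2 varied most, with an SD of 1.79. Its lowest animal had 1.69 CPM, the median was 44.3 and the highest had 130.4. The values fell into groups, with 122 animals (25.7%) at or below 6.06 CPM and the others at or above 18.4 CPM. Of the 122 animals, 55 were female and 67 male, and each generation held 21 to 31 of them and each block 18 to 31. Gm10175 ran up to 139.3 CPM (median 64.5), with 71 animals at or below 8.78 CPM and the others at or above 21.8 CPM, and it was above Atp5g2 in all but 98 animals. Gene and copy together ran only from 50.3 to 145.3 CPM (median 110.1), and the SD fell to 0.20, close to that of the other members. Because the coding sequence printed above is the same in both, the counts of either gene depend on how the authors' method divided shared reads, and the level of Atp5g2 alone is uncertain.

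Cox5b was the next such case. It ran from 61.8 to 278.9 CPM (median 191.04, SD of 0.43). Its copy Gm11273 was between 55.1 and 140.3 CPM in 72 animals (15.2%) and at or below 0.65 CPM in the others, and it exceeded Cox5b in 46. Together they ran from 117.3 to 279.1 CPM with an SD of 0.22. The coding differences C114T, A213G and G243A are the bases by which reads within this stretch of the reference can be told apart. Gm10221, a copy of Atp5l with 100% identity over the aligned bases, took 19.1% of the sum on average, and Gm6969, a copy of Cox7a2l, took 15.6%, against 58.5% for Gm10175 and 7.79% for Gm11273. Apart from these 4, the copies in the table took less than 2% of the sum on average. Members that overlap another gene of the annotation, namely Cox5a, Cox6a2, Cox6c, Atp5a1, Atp5d, Atp5f1, Atp5j and Atp5md, are also less certain, since the use of strand in counting was not stated.

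**Figure D4:**
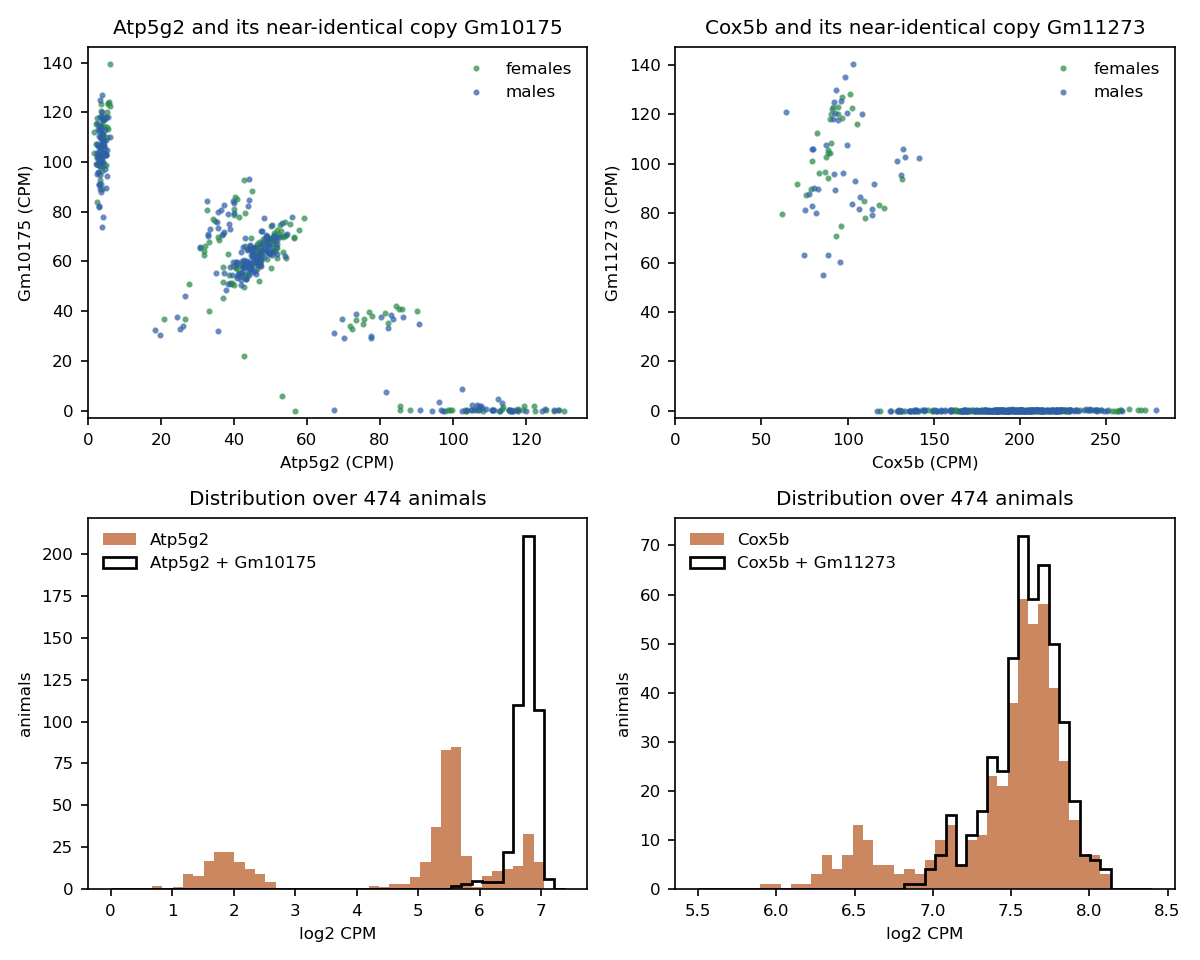
Atp5g2 with Gm10175 (left) and Cox5b with Gm11273 (right) in all animals, as CPM of the copy against CPM of the gene (top) and as numbers of animals by log2 CPM for the gene alone (filled) and the sum of gene and copy (line, bottom). Atp5g2 falls into several groups, with 122 animals at or below 6.06 CPM, while the sum forms a main peak near its median of 110.1 CPM, and 72 animals stand apart for Gm11273.

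The members rose and fell together from animal to animal. Over all pairs of tested members, the median Pearson r of log2 CPM after sex and generation was 0.47 (from -0.28 to 0.85; over all animals, which share library blocks). It was 0.58 within complex V, 0.34 within complex IV and 0.45 between the complexes. The closest pairs were Cox7a1 with Atp5k (0.85), Cox7a1 with Atp5e (0.85) and Atp5d with Atp5e (0.84). Within complex IV the closest was Cox6a1 with Cox8a (0.82). Atp5j2 and Atp5o had the highest median r with the other members (0.68 and 0.67), and Atp5g2 (0.05), Cox6b2 (0.08), Cox6a1 (0.18), Atp5md (0.23), Cox8a (0.26) and Cox5b (0.30) had the lowest. The lowest r of all, -0.28, was between Cox6a1 and Atp5md.

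The nearest genes of the isoform genes, by the highest positive r in the whole table, were as follows. Cox7a1 was closest to Uqcr11 (r = 0.88) and Uqcrq (0.86), and Cox8b to Uqcr11 (0.79) and Ndufb7 (0.79). Cox6a2 was closest to Uqcr10 (0.76) and Ndufb7 (0.73), and Cox7a2 to Atp5mpl (0.67) and Uqcrh (0.65). All of these encode small subunits of complexes I, III or V. Cox6a1, after Cox8a, was closest to Pfkl (0.76), a phosphofructokinase, and Cox8a, after Cox6a1, to Uck1 (0.66), a uridine-cytidine kinase. By positive r, the nearest genes were weaker for Cox5b (Chchd10 0.41, Ndufb2 0.39), Atp5g2 (Rpl39-ps 0.27, Smug1 0.25) and Cox6b2 (3300002P13Rik 0.26, Rps9 0.25), but over log2 CPM Cox5b went against its copy Gm11273 (r = -0.79) and Atp5g2 against Gm10175 (r = -0.55).

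Genes near these members were examined in the same way. Within 4 Mb, the gene of largest absolute r was Cox6b1 for Cox7a1 (0.74, itself a member), Sipa1 for Cox8a (0.64), Spns1 for Cox6a2 (0.63), Rplp2 for Cox8b (0.60), Selplg for Cox6a1 (0.42), Lca5 for Cox7a2 (-0.33), Mettl7a3 for Atp5g2 (-0.30), Zfp451 for Cox5b (-0.27) and 3300002P13Rik for Cox6b2 (0.26). In the table as a whole, 1 gene had a larger absolute r with Cox6b2 than its neighbour, 3 had one with Atp5g2 and 1192 with Cox6a1. Atp5d, named after its values were seen, had 2 genes ahead of its neighbour Ndufs7 (0.88).

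**Figure D5:**
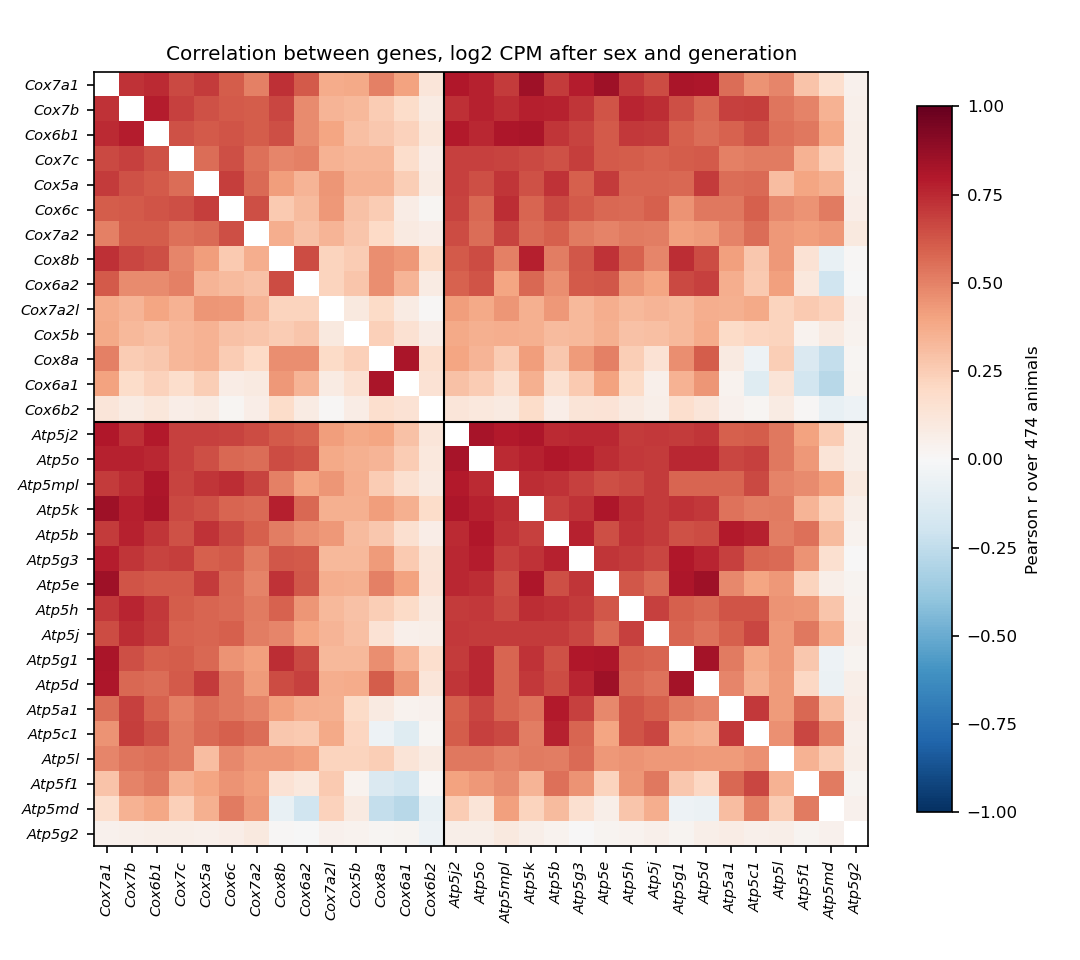
Pearson r between the 31 tested genes over all animals, on log2 CPM after sex and generation (colour scale from -1 to 1), with complex IV above and left of the lines. The median pair is at 0.47, Cox6a1 and Cox8a form a dark pair at 0.82, and the row of Atp5g2 is pale with a median of 0.05.

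To relate the complexes to each other and to tissue markers, the mean log2 CPM over the members of each complex was correlated with other measures. Sex and generation were first removed from all values. All animals were used (16 relations, permutation tests with 100000 resamples, adjusted over the 16). The complex V mean rose with the complex IV mean (Pearson r = 0.62, Spearman rho = 0.58, adjusted p = 1.6e-05 for r; 0.49 to 0.63 within blocks). Without the 2 animals farthest from the median, r was 0.60. With the copies of all members added, r was 0.82. Within each pair, the muscle form rose with the common form, at r = 0.51 for Cox7a1 and Cox7a2 (rho 0.47), 0.47 for Cox8b and Cox8a (rho 0.33) and 0.34 for Cox6a2 and Cox6a1 (rho 0.27), all with an adjusted p of 1.6e-05. Within blocks, r ran from 0.45 to 0.55, from 0.16 to 0.74 and from -0.02 to 0.56 in that order, and without the 2 farthest animals it was 0.48, 0.41 and 0.35.

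Esrra, an estrogen-related receptor that switches on respiratory genes, went with both means. It had r = 0.63 with complex IV (rho 0.49, adjusted p = 1.6e-05; 0.24 to 0.75 within blocks; 0.60 without 2 animals) and r = 0.56 with complex V (rho 0.51, adjusted p = 1.6e-05; 0.32 to 0.59 within blocks; 0.54 without 2 animals). With the copies of all members added, r of Esrra was 0.64 with complex IV and 0.70 with complex V, so the order of the complexes turned. Ppargc1a, a coactivator of the same programme, had r = -0.10 with complex IV (adjusted p = 0.0369; rho -0.09, adjusted p = 0.0706; -0.20 to 0.05 within blocks) and -0.04 with complex V (rho -0.06, adjusted p = 0.416; -0.21 to 0.11 within blocks). The mitochondrially encoded subunits went weakly against the nuclear ones, at r = -0.26 with complex IV (rho -0.21, adjusted p = 1.6e-05) and -0.14 with complex V (adjusted p = 0.00246; rho -0.09, adjusted p = 0.0590), but these relations did not hold in every block (-0.52 to 0.08 and -0.34 to 0.04). Without the 2 farthest animals, these 4 values of r were -0.10, -0.04, -0.26 and -0.14.

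Fast-fibre genes rose with complex IV (r = 0.27, rho 0.28; -0.07 to 0.39 within blocks) and complex V (r = 0.31, rho 0.28; 0.04 to 0.45 within blocks), both with an adjusted p of 1.6e-05. With the copies of all members added, r of fast-fibre genes was 0.27 and 0.43. Slow-fibre genes had r = 0.13 with complex IV (rho 0.12, adjusted p = 0.00856; 0.05 to 0.16 within blocks) and 0.08 with complex V (rho 0.07, adjusted p = 0.108; -0.05 to 0.12 within blocks). Adipocyte genes had r = 0.03 with complex IV (rho 0.02, adjusted p = 0.578; -0.08 to 0.14 within blocks) and -0.21 with complex V (rho -0.19, adjusted p = 1.6e-05; -0.34 to -0.11 within blocks). With the total count alone in place of TMM factors, the adipocyte relation was 0.19 with complex IV and -0.03 with complex V, and that of slow-fibre and fast-fibre genes with complex IV was 0.20 and 0.41. These relations share library scaling, and in the order given r was 0.27, 0.30, 0.13, 0.09, 0.02 and -0.21 without the 2 farthest animals.

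Genes that work with the members were compared between the sexes by the same fit (edgeR, adjusted p under 0.05). Of all tested genes, 24.4% were higher and 30.6% lower in males, the shares to set beside each list here and in the next paragraph. All 4 measured nuclear complex IV subunits outside the name rule were higher in males, with 0.08 for Cox4i1, 0.09 for Ndufa4, 0.11 for Ndufa4l2 and 0.13 for Cox4i2. Of the 5 subunits encoded by mitochondrial DNA, mt-Co1 (0.14) and mt-Co3 (0.12) were higher in males and the other 3 (0.00 for mt-Co2, 0.09 for mt-Atp6 and 0.12 for mt-Atp8) did not pass the test. Of 27 assembly and translation factors of complex IV, 6 were higher and 9 lower, with Cox10, which makes heme O, at 0.12 and Cox20 at -0.17. Of 9 assembly and regulatory genes of ATP synthase, the member Atp5mpl (0.03) was higher, and Fmc1 (-0.09) and Tmem70 (-0.06) were lower.

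In the neighbouring parts of the chain, 3 of 10 genes of cytochrome c and complex III were higher in males, Uqcrc1 (0.13), Cycs (0.12) and Cyc1 (0.08), and 2 were lower, Uqcrb (-0.06) and Uqcr11 (-0.06). Of the 4 subunits of complex II, Sdha (0.05) was higher and Sdhb (-0.08) lower. Among 15 transcriptional regulators of the chain, 4 were higher in males, Ppargc1a (0.23), Esrrg (0.19), Esrra (0.15) and Nrf1 (0.06), and 7 were lower, led by Ppargc1b (-0.27) and Tfb1m (-0.18). Between generations, 7.56% of all genes were called. In these lists of the respiratory chain, the genes called were 3 of the 15 regulators, all of the family of coactivators around Ppargc1a. These were Ppargc1a (range 0.58, highest in generation 18, adjusted p = 6.90e-08), Ppargc1b (0.24, adjusted p = 0.00217) and Pprc1 (0.12, adjusted p = 0.00634), while 0 of the 31 members were called. Among the tissue markers, 4 of 5 erythroid genes (range 0.73 to 0.91), 4 of 10 macrophage, 3 of 9 adipocyte and 2 of 6 brown adipocyte genes were called between generations, and 0 of the slow-fibre, fast-fibre, Schwann, cardiac and skeletal muscle genes were. Between blocks, 20 of the 27 complex IV assembly factors, 8 of the 9 ATP synthase factors, 3 of the 5 mitochondrially encoded subunits, all 10 genes of cytochrome c and complex III, 4 of 4 of complex II, 3 of the 4 other nuclear complex IV subunits and 7 of the 15 regulators were called, where 47.4% of all genes were. Tissue markers were called between blocks as well, with 5 of 5 of skeletal muscle, 9 of 12 of fast fibres, 5 of 9 of slow fibres, 3 of 5 of Schwann cells, 4 of 10 of macrophages, 4 of 6 of brown adipocytes (Cox7a1 and Cox8b among the 6), 1 of 9 of adipocytes, 1 of 5 of erythroid cells and 0 of 3 of cardiac muscle. With the slow-fibre and adipocyte sums as covariates, 28 of 31 members differed between blocks, against 48.6% of all genes. The part of the other lists in the block differences of the members was not tested.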

How the data were processed

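RNA-seq of skeletal muscle was analysed in 474 DO mice (235 females and 239 males), with 1 library per animal. The authors selected polyadenylated RNA, combined both mates of each read pair, aligned them as single-end reads to a transcriptome of the 8 founder strains, and expected counts were estimated by EMASE in the GBRS package. The deposited expected counts are not normalised and count read ends. The authors also deposited a variance-stabilised score (VST, from DESeq2) per gene and library. The methods describe a removal of batch effects. In the deposited score, where Cox6c2 was tested too, 24 of the 32 members and 36.7% of all genes differed between library blocks, whose meaning is not given. Positions follow GRCm38 and equalled GENCODE M21 for all 32 members. Versions of the alignment software and the use of strand were not given in the sources used here. Wave, a covariate of the study, is not in the labels and was not fitted.

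Expected counts were rounded and tested in R 4.3.3 by the quasi-likelihood F-test of edgeR 4.0.16 with TMM factors (0.871 to 1.29). The filter on low counts (filterByExpr, minimum count 10, groups of sex and generation) kept 18823 genes and removed 1789. The covariate was generation for sex, sex for generation, both for the interaction and for library blocks, and p-values were adjusted together for all tested genes (Benjamini-Hochberg, threshold 0.05). Log2 CPM used a prior count of 2. On simulated data over these 18823 genes, the male minus female test recovered 68% of genes changed 1.2-fold and 100% of those changed 2-fold, and called 0.0215% of unchanged genes. The sex differences of the members were all smaller than 1.2-fold, a size that was not simulated, and the simulated counts held no block differences. P-values rest on animals as the units, with 1 library each.

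Alternatives were DESeq2 1.42.0, limma 3.58.1 on the VST score, other scalings, filters and covariates, fits within generations and blocks, the comparison without 5 libraries, and, chosen after seeing the data, counts with near-identical copies added (at least 95% identity over 200 bases, BLAST 2.17.0). Blocks were started after a gap of more than 3 library numbers and then every 96 numbers. The latter division was also chosen after seeing the data, and 2 blocks by the gap alone are the alternative. Permutation tests and figures used Python 3.11.15 with scipy 1.17.1, pandas 2.3.3, matplotlib 3.10.9 and numpy 2.4.6.

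The members and all gene lists were chosen with earlier results of these data known. Given in full were the genes of the isoform pairs, the 5 members with the largest rise and the 5 with the largest fall in males among those called, the 5 with the largest and the 3 with the smallest SD, and the 3 with the largest block range. The adipocyte and fibre lists and the other marker lists were described by counts. Depth was 35900000 to 165700000 counts per library, and the members with few counts were Cox6b2 and Cox6c2.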

Additional observations from a re-analysis of the deposited data

How the results depend on the processing

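No paired analysis was possible because each animal appears once and the replicate numbers name no shared litter, batch or day. Fewer members were called within generations or blocks. Within generations 17, 18, 19, 21 and 23, 4, 1, 0, 2 and 3 members were called (1, 0, 0, 1 and 3 higher, and 3, 1, 0, 1 and 0 lower in males), and within blocks 1 to 5, 2, 5, 7, 7 and 5 were (0, 2, 3, 2 and 5 higher, and 2, 3, 4, 5 and 0 lower) in these smaller fits, which called 19.6% to 28.6% of all genes. The differences themselves stayed about as large within generations for Cox7a1 (0.11 to 0.18), Atp5k (-0.13 to -0.08), Cox7b (-0.07 to -0.06) and Atp5a1 (0.04 to 0.08). Limma on the VST score called 7 members higher in males, and the total count alone called 2 higher and 10 lower. With slow-fibre and adipocyte covariates the sign of Cox6a1 turned (0.0429). The alternatives over all animals gave 12 to 18 members called for sex, 24 to 29 for blocks and 0 for generation and interaction. Of these, the VST score and the fit without a filter tested all 32 members, Cox6c2 included. The isoform ratios kept their calls under every alternative run. In the edgeR fit with slow-fibre and adipocyte covariates, however, Cox8a by itself rose by 0.10 in males (adjusted p = 0.00783). Of the relations, slow-fibre genes with complex IV came to 0.0811 on VST, and Ppargc1a with complex IV to -0.0882 on VST and -0.0872 with copies added, none past the threshold. Mitochondrially encoded subunits with complex V came to -0.0709 after block was removed. With the total count alone, slow-fibre and fast-fibre genes came to 0.20 and 0.41 with complex IV, adipocyte genes came to 0.19 with complex IV and -0.0334 with complex V, slow-fibre genes to 0.14 with complex V (0.13 with copies added) and Ppargc1a to -0.10 with complex V. The cause of these changes was not tested. Counts of genes with copies, genes that overlap others and Cox6b2 limit what the members' values can show.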

Other observations

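Cox6a1 and Cox8a, which lie on chromosomes 5 and 19, had r = 0.82 with each other over all animals, and medians of 0.18 and 0.26 with the other members. Their ranges were wide, from 4.23 to 32.2 CPM for Cox6a1 and from 4.17 to 35.4 CPM for Cox8a. The SD of Cox6a1 was 4.33 CPM in females and 2.26 CPM in males, and that of Cox8a was 3.84 and 2.82 CPM. Within blocks, r between Cox8a and the muscle form Cox8b ran from 0.16 to 0.74, and between Cox6a1 and Cox6a2 from -0.02 to 0.56. Generations gave narrower ranges, 0.35 to 0.66 and 0.25 to 0.49.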
